A study of Mus musculus with 1012 samples.

Results

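Live-seq was applied to RAW-G9 macrophages that had received lipopolysaccharide (LPS) or a mock treatment, and the RNA of the 2 groups is compared here. RAW-G9 is a single clone of the mouse macrophage line RAW264.7 that carries mCherry under the Tnf promoter and a fusion of EGFP to Rela, so both groups hold both transgenes. Live-seq draws a biopsy of cytoplasm out of a living cell with a hollow cantilever and makes a Smart-seq2 library from it. LPS-treated cells were sampled 4 to 5 h after LPS was added, and mock cells in the same medium without it. The dose stands as 100 ng/ml in the methods and as 40 ng/ul in the labels. By their labels, 14.03% of the 1012 libraries of the series belong here, 39 of them from LPS-treated cells and the rest from mock cells. The labels call the mock cells not treated, while the paper names them mock and gives PBS. Wild-type RAW264.7 cells of a further batch, 5Reseq, were left out. Counts were summed per batch and treatment, since cells of a batch are not replicates, which gave 4 LPS and 4 mock sums. The LPS sums of batches 6, 7, 8_8 and 9_4 hold 4, 16, 9 and 10 cells, and the mock sums hold 8, 20, 63 and 12. The labels do not say that batches were separate cultures, so p-values measure the spread between batches, which may be technical.

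LPS is a component of the outer membrane of Gram-negative bacteria. On macrophages it is bound by CD14 and by the receptor TLR4 with its partner MD-2, and adaptors such as MYD88 pass the signal on until NF-κB subunits enter the nucleus. The first genes to respond encode secreted cytokines and chemokines, receptors of the cell surface, enzymes that make prostaglandins and itaconate, and inhibitors that later close the response down.

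Total counts ran from 69292 to 1074064 in LPS cells (median 601599) and from 64547 to 1116946 in mock cells (median 389710). Levels are given as CPM, the counts of a gene per 1000000 counts of a sum, after 20 negative-control and 92 ribosomal protein genes had been taken out. The LPS sums held from 1410154 to 9935375 such counts and the mock sums from 1563605 to 18077726. Batch 6 is the thinnest, with the smallest sum of each treatment. The cells carried macrophage RNA. All 10 genes of a macrophage list had counts, among them Cd68, Tyrobp and Lyz2, and their summed level was 7870 to 15996 CPM in the LPS sums and 2935 to 13229 CPM in the mock sums. Batch 6 gave the lowest mock value. Of 10 genes of the mesenchymal cells handled in the same experiments, Pdgfra, Dcn, Thy1 and Ly6a had no count, and the summed level of the list was at most 1.24 CPM in any sum.

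The reporter of RAW-G9 reads the Tnf promoter, and Icam1 and Nfkbia are textbook NF-κB targets, so the 250 bases before their start sites are shown for reference. Sequences are those of RefSeq on GRCm38.p6, 5′ to 3′ on the strand of the gene, at chr17:35202008-35202257 (minus strand) for Tnf, chr9:21015690-21015939 (plus strand) for Icam1 and chr12:55492648-55492897 (minus strand) for Nfkbia. Capitals mark matches to GGANNTTCC, the core of a κB site, or to its reverse complement GGAANNTCC, so that both strands were searched.

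Tnf: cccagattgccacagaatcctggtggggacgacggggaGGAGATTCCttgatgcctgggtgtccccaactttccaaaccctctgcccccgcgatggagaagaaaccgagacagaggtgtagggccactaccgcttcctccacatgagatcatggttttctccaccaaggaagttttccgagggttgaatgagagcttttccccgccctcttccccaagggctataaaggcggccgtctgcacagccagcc
Icam1: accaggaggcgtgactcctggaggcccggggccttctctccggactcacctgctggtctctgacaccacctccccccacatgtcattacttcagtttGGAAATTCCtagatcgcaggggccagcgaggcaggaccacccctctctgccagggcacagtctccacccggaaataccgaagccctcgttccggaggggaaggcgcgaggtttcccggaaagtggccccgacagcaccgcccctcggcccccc
Nfkbia: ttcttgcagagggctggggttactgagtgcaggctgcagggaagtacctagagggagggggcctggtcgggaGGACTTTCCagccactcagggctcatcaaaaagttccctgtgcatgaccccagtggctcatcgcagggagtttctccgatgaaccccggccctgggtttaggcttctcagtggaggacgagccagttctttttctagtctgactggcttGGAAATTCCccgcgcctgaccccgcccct

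Counted from the first base shown, the match begins at base 39 for Tnf and at base 98 for Icam1, and Nfkbia has 2, at base 73 and at 29 bases before the start. The motif occurs in 3.59% of all 32851 promoters of the table over the same length. It occurs in 7 of the 15 promoters found for the 24 secreted factors listed further on (Tnf, Il6, Csf1, Cxcl1, Cxcl2, Cxcl3 and Cxcl10). The promoters of Ptgs2 and Clec4e hold no match in this window. A match is a run of letters and was not tested for binding.

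The first question was which genes differ between LPS and mock cells. Of 9140 genes tested with edgeR's quasi-likelihood test and batch as a block, 0 passed an adjusted p of 0.05, that is 0% of the genes. The lowest adjusted p was 0.289. An unadjusted p under 0.05 was found for 2.51% of the genes, 1.12% higher and 1.39% lower after LPS. The newer fit of edgeR 4 also called 0, with 5.90% of the genes at an unadjusted p under 0.05. DESeq2 called 79 genes higher (0.864% of those tested) and 88 lower (0.963%). By edgeR, therefore, no single gene stood out from the spread between batches, which was wide, with a common dispersion of 1.56. What follows gives the values of each sum. As a background for direction, 4.1% of all genes were higher after LPS in 4 of 4 batches and 10.3% were lower, and in 1.37% every LPS sum lay above every mock sum, against 2.82% with every LPS sum below. The median log2 fold change over all genes tested was -0.37, which the lists below should be read against.

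Tnf (chr17:35199381-35202007, minus strand, mm10), which encodes the cytokine TNF, was at 3131, 1772, 1666 and 2231 CPM in the LPS sums of batches 6, 7, 8_8 and 9_4, and at 307.6, 126.7, 190.1 and 128.2 CPM in the mock sums. The groups did not overlap, and the lowest LPS sum lay well above the highest mock sum. The means were 2200 ± 667.2 and 188.2 ± 84.9 CPM (SD, n = 4), and the log2 fold change was 3.63 ± 0.41 (SE), or 12.4-fold, with an adjusted p of 0.289 (edgeR).

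Ccl4 (chr11:83662584-83664683), a chemokine that draws in other immune cells, was at 3215, 1505, 1365 and 3278 CPM after LPS and at 187.4, 67.1, 276.8 and 235.2 CPM in mock cells. Again no mock sum reached an LPS sum. Its log2 fold change was 3.71 ± 0.48, with an adjusted p of 0.478 (edgeR). Ptgs2 (chr1:150100031-150108227), the inducible cyclooxygenase that makes prostaglandins, was at 379.4, 1479, 394.97 and 823.8 CPM after LPS, and at 0, 0, 63.2 and 86.4 CPM without it. Its log2 fold change of 6.53 ± 2.57 leans on the mock sums at 0, and ran from 4.54 to 10.5 as batches were left out, the highest without batch 9_4.

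Icam1 (chr9:21015985-21028817), the adhesion molecule that binds leukocyte integrins, shared the lowest adjusted p with Tnf. It was at 542.5, 1360, 1503 and 2027 CPM after LPS and at 35.8, 91.7, 114.8 and 129.8 CPM in mock cells. Its log2 fold change was 3.90 ± 0.40 (14.9-fold; edgeR adjusted p of 0.289). Apart from Tnf, Icam1 and Ccl4, no gene named here had an adjusted p under 0.999 by edgeR in this comparison.

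**Figure D1:**
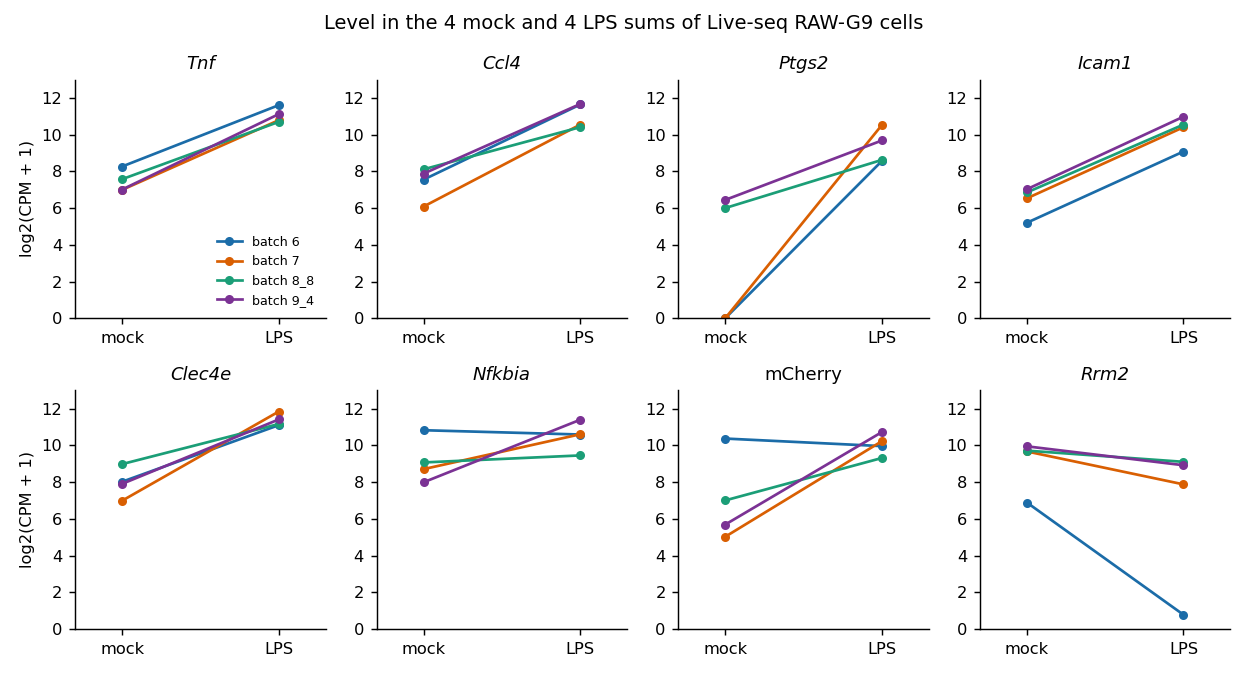
Level of 8 genes in each sum, as log2(CPM + 1), with mock on the left and LPS on the right of each panel and a line joining the sums of a batch. For Tnf, Ccl4, Ptgs2, Icam1 and Clec4e every LPS point is above every mock point, for Nfkbia and mCherry the line of batch 6 runs slightly downwards, and Rrm2 is lower after LPS in 4 of 4 batches.

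The 2 transgenes and Nfkbia, the gene of the NF-κB inhibitor IκBα, went with the markers in 3 of 4 batches. mCherry was at 998.5, 1203, 636.8 and 1696 CPM after LPS and at 1328, 31.6, 127.5 and 50.6 CPM in mock cells. The mock sum of batch 6 was thus above the LPS sum, and a single mock cell at 7425 CPM supplied 92.4% of its mCherry counts. That cell also had 1535 CPM of Tnf. The log2 fold change of mCherry was 3.36 ± 1.32 with all batches and 4.46 without batch 6. EGFP was at 421.2, 172.7, 81.8 and 276.04 CPM against 539.8, 23.8, 45.7 and 46.8 CPM, and the same cell gave 78.0% of the EGFP counts of the mock sum of batch 6. Nfkbia was at 1547, 1563, 701.9 and 2708 CPM against 1820, 418.2, 538.2 and 254.2 CPM, a log2 fold change of 1.38 ± 0.76 with all batches and 2.08 without batch 6. In that mock sum, 41.7% of Nfkbia counts came from 1 cell.

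Cell by cell, the marker separated the groups more by its level than by its presence. Tnf had a count in 38 of 39 LPS cells (97.4%, exact binomial 95% interval 86.5 to 99.9) and in 62 mock cells (60.2%, 50.1 to 69.7). The intervals cover counting error alone. After every cell with enough counts had been thinned to 50000, Tnf was found in 97.4% of LPS and 49.5% of mock cells. Its median was 1773 CPM in LPS cells and 12.9 CPM in mock cells, and single mock cells reached 1833 CPM. In batch 9_4, where all 10 LPS cells had Tnf, they ran from 1549 to 3569 CPM, above the highest mock cell of that batch (642.2 CPM). In batches 6, 7 and 8_8 the 2 groups of cells overlapped. The LPS cell without a Tnf count, in batch 7, had 3099 CPM of Ccl4.

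Ptgs2 differed more by its presence than Tnf did. It had a count in 29 of 39 LPS cells (74.4%, 57.9 to 87.0) and in 8 mock cells (7.77%, 3.41 to 14.7), 7 of them in batch 8_8. The LPS cells with a count were 2 of 4 in batch 6, 14 of 16 in batch 7, 4 of 9 in batch 8_8 and 9 of 10 in batch 9_4. Among whole cells, 85.9% of LPS and 13.4% of mock cells had a count. mCherry was found in 32 of 39 LPS cells (82.1%, 66.5 to 92.5) and in 28 mock cells (27.2%, 18.9 to 36.8), with medians of 1151 and 0 CPM. Icam1 was found in 34 LPS and 35 mock cells, which is 87.2% and 33.98%.

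**Figure D2:**
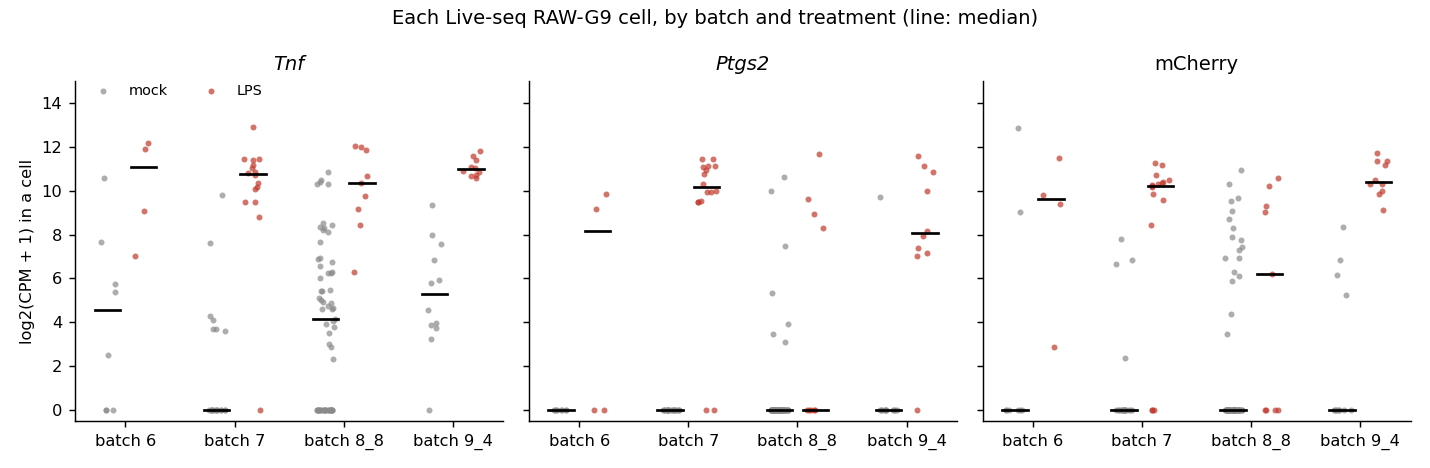
Level of Tnf, Ptgs2 and mCherry in each cell, as log2(CPM + 1), by batch, with mock cells in grey, LPS cells in red and a line at the median. LPS cells sit high for Tnf in 4 of 4 batches, with 1 cell at 0, whereas most mock cells lack Ptgs2 and mCherry and the mock cell at 7425 CPM of mCherry stands alone in batch 6.

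The secreted cytokines and chemokines had the highest median fold change of the 16 lists. Of 24 members, 14 passed the filter on low counts, and a member could pass through its level after LPS alone. All 14 had a log2 fold change above 0, and 10 were higher in 4 of 4 batches, against 4.1% of all genes. edgeR called 0 and DESeq2 called 11, all higher, against 0.864% of all genes. The 11 were Tnf, Il27, Lif, Csf1, Csf3, Ccl3, Ccl4, Ccl5, Ccl9, Ccl22 and Cxcl2. The median of the 14 was 6.33, and it was 3.50 without batch 7 and 9.82 without batch 8_8. On the log2(CPM + 1) scale, over all 24 members, the median difference was 3.55. Summed over the list, the level was 28643, 18718, 10908 and 20434 CPM after LPS and 3273, 543.3, 2407 and 904.1 CPM in mock cells.

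Ccl3, a chemokine of the same family as Ccl4, was at 12076, 7366, 4450 and 10268 CPM after LPS and 1846, 179.2, 1408 and 439.7 CPM without it. Ccl9 was at 2032, 2773, 995.5 and 2929 CPM against 112.6, 121.6, 379.5 and 100.3 CPM. Cxcl2, which recruits neutrophils, was at 5550, 1497, 1876 and 760.4 CPM after LPS, and at 405.5, 0, 85.8 and 0 CPM in mock cells. In all 3 the LPS sums lay above the mock sums, which holds for 1.37% of all genes. Ccl9 was among the genes picked for direction and small p in these same sums, so its separation is no further support. In the mock sum of batch 6, a single cell gave 99.2% of the Cxcl2 counts. Il1b was uneven among LPS sums, at 85.1, 1482, 0.699 and 60.9 CPM, against 78.7, 0, 8.35 and 0 CPM. Il6 and Cxcl10 did not pass the filter. Each had a count in 3 LPS cells and in 0 mock cells. Il6 was at 0, 12.6, 0 and 1.24 CPM and Cxcl10 at 2.13, 14.6, 0 and 0 CPM after LPS, so that nearly all counts of both came from batch 7. Against a floor of 3 counts over the mock sums, the pooled level after LPS was 79.7-fold higher for Il6 and 90.03-fold higher for Cxcl10. These bounds treat pooled reads as independent and do not cover the spread between cells or batches. Without batch 7 the bound for Il6 was 6.29-fold and Cxcl10, with 3 counts left, gave no bound, and without batch 8_8 the bounds were 37.9-fold and 42.9-fold. Il10 and Cxcl1 had no count in these cells. The absence of a count does not show that the RNA is absent at this depth.

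Receptors tied to macrophage activation came next. Of 20 listed, 12 passed the filter and 7 were higher in 4 of 4 batches (4.1% of all genes). In these 7 every LPS sum was above every mock sum (1.37% of all genes). A member could pass the filter through its level after LPS alone, which favours values above 0. DESeq2 called Icam1, Clec4e, Gpr84, Cd83 and Tnfrsf1b, where 0.864% of all genes were called higher. edgeR called 0, and the median log2 fold change was 3.23. Clec4e, the lectin Mincle that recognizes mycobacterial glycolipids, was at 2204, 3686, 2302 and 2734 CPM after LPS and at 259.02, 125.97, 505.5 and 238.99 CPM in mock cells, a log2 fold change of 3.42 ± 0.56. Gpr84, a receptor for medium-chain fatty acids, was at 2069, 1239, 1112 and 1385 CPM against 60.1, 88.7, 296.8 and 246.8 CPM. Cd44, the receptor for hyaluronan, was at 1341, 1143, 703.96 and 642.4 CPM against 2.56, 201.8, 348.1 and 328.7 CPM, with the low mock value in batch 6. Cd80 and Cd86 had no count in either group.

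Of the 10 genes with the smallest p among those higher in 4 of 4 batches, Cybb, Srgn and Gm49339 belong to none of the lists. Cybb, the catalytic subunit of the phagocyte NADPH oxidase, was at 1276, 3900, 3602 and 3396 CPM after LPS and at 385.01, 1110, 789.8 and 857.1 CPM in mock cells, a log2 fold change of 1.96 ± 0.31. Srgn, the proteoglycan serglycin of secretory granules, was at 689.996, 493.3, 572.5 and 396.4 CPM against 102.97, 76.2, 125.8 and 47.4 CPM. The predicted gene Gm49339 was at 1671, 1691, 1264 and 2366 CPM against 231.5, 235.97, 459.96 and 652.5 CPM. In each of the 3 the groups did not overlap, which holds for 1.37% of all genes. The 3 were picked for direction and small p in these same sums, so this separation is no further support.

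All 14 members of the list of NF-κB subunits and IκB proteins passed the filter. Of these, 12 had a log2 fold change above 0 and 5 were higher in 4 of 4 batches (4.1% of all genes). DESeq2 called Nfkbiz, Nfkbib and Nfkbid, where 0.864% of all genes were called higher, while edgeR called 0. The median was 1.92. Nfkbiz, an atypical nuclear IκB protein that helps to switch on secondary response genes, was at 710.6, 297.7, 160.8 and 168.6 CPM after LPS and at 47.3, 3.99, 11.5 and 2.46 CPM in mock cells, a log2 fold change of 5.02 ± 0.97. Nfkb2, which encodes p100, the precursor of p52, was at 158.1, 566.2, 643.1 and 444.8 CPM against 141.98, 84.4, 164.7 and 6.04 CPM. Nfkb1, the gene of p105, the precursor of p50, was at 181.5, 362.9, 238.4 and 122.6 CPM against 176.5, 260.7, 110.1 and 0.671 CPM, and here the groups overlapped. Rela was at 384.4, 224.5, 74.8 and 315.8 CPM against 416.99, 46.5, 111.5 and 36.3 CPM and was higher in 2 of 4 batches. Reads from the EGFP fusion transgene can count as Rela.

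Inhibitors of TLR signalling showed the same direction with more spread. Of 18 listed, 13 passed the filter and 11 had a log2 fold change above 0. A member could pass through its level after LPS alone, which favours such values. In 4 of 4 batches, 4 were higher (4.1% of all genes). DESeq2 called 1 higher (edgeR 0), against 0.864% of all genes. The median was 1.76. The gene DESeq2 called is Tnfaip3, the ubiquitin-editing enzyme A20, at 170.9, 79.8, 30.1 and 268.8 CPM after LPS and 94.01, 0, 19.3 and 0 CPM in mock cells. Traf1, an adaptor of TNF receptors, was at 376.6, 405.3, 334.2 and 455.4 CPM against 227.7, 80.6, 24.7 and 0 CPM. Atf3, a transcription factor that dampens cytokine genes, was at 521.2, 379.9, 146.1 and 234.2 CPM against 141.3, 103.1, 69.98 and 12.98 CPM. For Traf1 and Atf3 every LPS sum was above every mock sum (1.37% of all genes). Tnip1, the partner of A20, was at 1191, 552.9, 493.5 and 302.8 CPM against 1073, 89.8, 123.5 and 93.3 CPM, the first mock value being that of batch 6.

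Among 18 names of inflammatory and metabolic enzymes, 17 are in the table (Irg1 is an older name of Acod1). Of these, 11 passed the filter and 7 were higher in 4 of 4 batches, against 4.1% of all genes. A member could pass through its level after LPS alone, which favours values above 0. DESeq2 called Ptgs2 and Acod1, where 0.864% of all genes were called higher. edgeR called 0, and the median log2 fold change was 1.88. Acod1, the enzyme that makes itaconate, was at 2834, 9580, 5475 and 12525 CPM after LPS and 1310, 955.5, 817.6 and 266.3 CPM in mock cells, without overlap. Sod2, the mitochondrial superoxide dismutase, was at 1319, 1944, 674.6 and 1690 CPM against 1960, 236.1, 401.2 and 230.04 CPM. Hif1a, a driver of glycolytic genes, was at 998.5, 773.9, 741.7 and 907.6 CPM against 2659, 344.9, 662.1 and 399.9 CPM. Both were higher after LPS in 3 of 4 batches, batch 6 being the exception. Ldha, lactate dehydrogenase A, was at 2822, 5624, 4879 and 7112 CPM against 4532, 5754, 4592 and 5961 CPM, with a log2 fold change of -0.06 ± 0.31.

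Genes induced by interferon varied between batches. Of 18 listed, 11 passed the filter and all of these had a log2 fold change above 0, with a median of 3.19. A member could pass through its level after LPS alone, which favours values above 0. Only 3 of the 11 were higher in 4 of 4 batches, against 4.1% of all genes. DESeq2 called Isg15, Irf7 and Gbp2 (edgeR 0), with 0.864% of all genes called higher. Irf7, a transcription factor that amplifies interferon production and overlaps Phrf1, was at 138.99, 448.5, 0 and 60.3 CPM after LPS and at 0, 0, 4.87 and 0 CPM in mock cells. Oasl1 was at 762.3, 742.7, 105.6 and 393.7 CPM against 194.4, 0, 13.995 and 19.9 CPM. Usp18, a protease that removes ISG15 from proteins, was at 0, 258.1, 51.7 and 235.5 CPM against 1.92, 30.3, 7.08 and 0.224 CPM. Gbp5 had counts in 12 LPS cells and 2 mock cells and did not pass the filter, at 0, 224.9, 0 and 141.4 CPM against 0, 0, 0.387 and 0 CPM. Summed over the list, the LPS level was 1030, 2844, 198.5 and 1444 CPM, lowest in batch 8_8, and the mock sums lay between 60.2 and 256.5 CPM. Ifnb1, the interferon β gene that induces many of them, had no count.

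The receptors and adaptors that sense LPS moved less. Of 16 listed, 15 passed the filter, 9 had a log2 fold change above 0, and the median was 1.00. In 4 of 4 batches, 2 were higher (4.1% of all genes) and 1 lower (10.3%). DESeq2 called 1 higher, the adaptor gene Ticam1, against 0.864% of all genes, and edgeR called 0. Cd14 was at 1642, 4971, 1884 and 2318 CPM after LPS and at 546.8, 960.1, 1140 and 1658 CPM in mock cells. Tlr2, the receptor for bacterial lipopeptides, was at 2337, 507.2, 1756 and 910.1 CPM against 1083, 158.5, 293.4 and 416.2 CPM. In both genes each batch had the higher value after LPS, although the groups overlapped. Tlr4 ran the other way, at 0, 15.4, 2.10 and 24.4 CPM after LPS and 1.28, 286.6, 49.7 and 32 CPM in mock cells. Irak2 was higher in 3 of 4 batches, at 56.02, 98.9, 201.3 and 209.8 CPM against 147.1, 30.4, 36.2 and 100.9 CPM. Myd88, whose reads overlap the neighbouring gene Acaa1a, was at 0.709, 170.8, 81.8 and 141.02 CPM against 184.2, 107.9, 63.6 and 82.3 CPM.

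Immediate early genes were mixed. Of 13 listed, 10 passed the filter, and a member could pass through its level after LPS alone. In 4 of 4 batches, 4 of the 10 were higher (4.1% of all genes) and 1 lower (10.3%). None was called by edgeR or DESeq2, and the median was 1.32. Ier3 was at 202.8, 535.2, 675.3 and 488.3 CPM after LPS and 223.2, 66.5, 65.9 and 0.224 CPM in mock cells. Junb, which overlaps Prdx2, was at 236.1, 856.7, 759.2 and 589.8 CPM against 285.9, 137.3, 375.05 and 329.2 CPM. Ier2 was at 121.97, 256.7, 385.2 and 101.1 CPM against 83.8, 160.3, 127.6 and 54.6 CPM, higher in 4 of 4 batches with overlapping groups. Jun, a subunit of AP-1, was at 0, 133.9, 54.5 and 57.6 CPM against 22.4, 101.5, 62.2 and 186.2 CPM.

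Of the 14 receptors and regulators typical of resting macrophages, 7 passed the filter. In 4 of 4 batches, 2 of these (Mef2c and Tgfbr2) were lower, against 10.3% of all genes. The median of -0.34 was close to that of all genes tested, and neither tool called a member. Mef2c, a transcription factor, was at 0, 144.7, 247.5 and 295.3 CPM after LPS and at 431.7, 647.1, 442.6 and 503.7 CPM in mock cells, without overlap. Csf1r, the receptor for the growth factor CSF1, which overlaps Hmgxb3, was at 1014, 1622, 1565 and 1262 CPM against 885.8, 2114, 1661 and 1453 CPM. Trem2, a lipid-sensing receptor, was at 542.5, 181.6, 226.5 and 144.1 CPM against 57.6, 453.5, 433.6 and 453.8 CPM. Cx3cr1, whose annotated span covers several other genes, was at 206.4, 501.3, 303.4 and 120.1 CPM against 1.92, 525.1, 382.8 and 767.1 CPM. Csf1r, Trem2 and Cx3cr1 were each lower after LPS in 3 of 4 batches, and in batch 6 all 3 were higher.

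**Figure D3:**
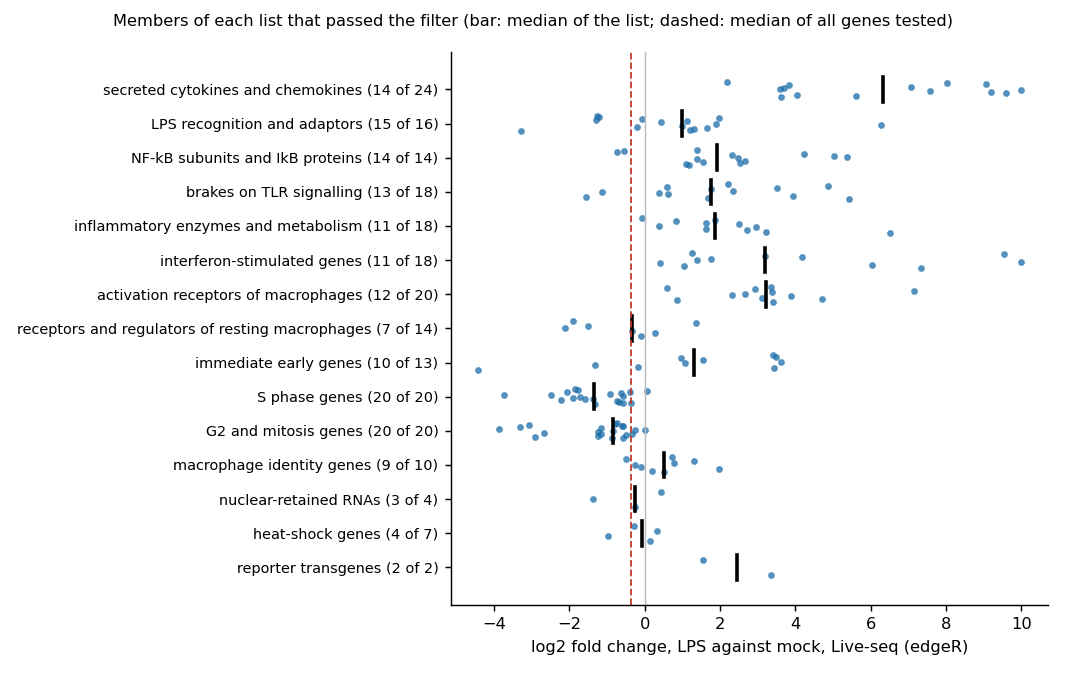
Log2 fold change of LPS against mock in Live-seq RAW-G9 cells for each list member that passed the filter (number passed of number listed), with a black bar at the median of the list, a grey line at 0 and a dashed line at the median of all genes tested, -0.37. Secreted factors lie furthest to the right, with a median of 6.33, and S phase genes lie to the left, with a median of -1.34.

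Genes of the cell cycle lay on the lower side. All 20 S phase genes passed the filter, 19 had a log2 fold change below 0, and 10 were lower in 4 of 4 batches, which is true of 10.3% of all genes. In 5 of them every LPS sum was below every mock sum, against 2.82% of all genes. The median was -1.34, against -0.37 for all genes, and edgeR and DESeq2 called 0. Rrm2, a subunit of ribonucleotide reductase, was at 0.709, 234.5, 550.9 and 484.2 CPM after LPS and 117.7, 816.2, 841.5 and 989.99 CPM in mock cells. Rrm1, its partner, was at 32.6, 315.5, 278.2 and 218.7 CPM against 709.3, 598.3, 400.7 and 351.1 CPM, without overlap. Mcm3 and Mcm6 belong to the helicase that opens replication origins. Mcm3 was at 292.9, 337.5, 195.7 and 233.6 CPM against 335.1, 447.6, 275.4 and 568.4 CPM. Mcm6 was at 341.1, 174.3, 762.7 and 280.8 CPM against 188.03, 669.3, 830.03 and 977.7 CPM, lower in 3 of 4 batches. The summed level of the list was 1236, 2150, 4070 and 2693 CPM after LPS and 3247, 6132, 5722 and 6532 CPM in mock cells, lower in each batch.

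The 20 genes of G2 and mitosis had a median of -0.85, and 4 were lower in 4 of 4 batches, against 10.3% of all genes. Top2a, the topoisomerase that untangles chromosomes, was at 419.8, 389.2, 284.5 and 128.2 CPM after LPS and 312.1, 988.9, 722.3 and 305.01 CPM in mock cells. Cdk1 was at 26.9, 244.5, 262.8 and 185.8 CPM against 302.5, 533.6, 429.4 and 178.1 CPM. Hmgb2 was at 535.4, 187.01, 666.9 and 316.6 CPM against 635.7, 546.2, 591.7 and 533.3 CPM. Ube2c was at 1174, 204.6, 131.4 and 65.02 CPM against 303.8, 274.9, 286.8 and 165.4 CPM, with the highest of these values in the LPS sum of batch 6. Each of the 4 was lower after LPS in 3 of 4 batches.

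Among single genes lower after LPS in 4 of 4 batches, those with the smallest p were mostly of low level and rested on few cells. Arhgap45 was at 0, 11.2, 13.3 and 0.828 CPM after LPS and 142.6, 523.95, 175.5 and 342.6 CPM in mock cells. It had a count in 6 LPS and 51 mock cells, and its log2 fold change was -6.58 ± 1.56. Rab7b, a small GTPase of late endosomes, was at 0, 0.503, 7.69 and 0.621 CPM against 204.02, 19.5, 129.99 and 81.5 CPM. Serpinb8 was at 1.42, 0, 0 and 0 CPM against 19.8, 112.7, 53.8 and 52.1 CPM. Hdac5 was at 0, 14.9, 0 and 0 CPM against 15.99, 168.5, 25.4 and 52.1 CPM. Uhrf2 was at 0, 4.43, 0 and 0 CPM against 154.1, 79.2, 27.2 and 21.3 CPM. In these 5 genes each mock sum exceeded each LPS sum, which holds for 2.82% of all genes. They were picked for direction and small p in these same sums, so this separation is no further support. The unnamed gene 2510009E07Rik was at 0, 2.31, 8.39 and 3.11 CPM against 13.4, 185.5, 41.5 and 165.4 CPM, again without overlap. Ska3, which overlaps Sap18, was at 0, 17.5, 7.69 and 22.6 CPM against 5.76, 236.8, 74.3 and 247.7 CPM, and its groups overlapped.

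Rara, the retinoic acid receptor α, and Fam83d had no count in any LPS cell. Rara was at 322.3, 47.1, 10.6 and 10.5 CPM in the mock sums, with counts in 27 mock cells. Fam83d was at 28.1, 182.97, 34.2 and 36.5 CPM, with counts in 19. Against a floor of 3 counts over the LPS sums, the pooled mock level was 204.6-fold higher for Rara and 418.6-fold higher for Fam83d. These bounds treat pooled reads as independent and do not cover the spread between cells or batches. Without batch 7 these bounds were 78.7-fold and 87.5-fold, without batch 8_8 they were 356.5-fold and 642.4-fold, and without batch 6 that of Rara was 108.8-fold. Mycn, a transcription factor of the MYC family, is the well-counted gene of this group, at 1900, 1082, 1715 and 2067 CPM after LPS and 2312, 3763, 3224 and 3619 CPM in mock cells, without overlap. Its log2 fold change was -0.92 ± 0.29. DESeq2 called all of these genes but Mycn, and edgeR called 0 of them. In whole RAW-G9 cells, the log2 fold change was 0.04 for Uhrf2, -0.28 for 2510009E07Rik, -0.34 for Ska3, -0.15 for Fam83d and 0.34 for Rara. There it was -2.25 for Arhgap45, -2.30 for Rab7b, -1.74 for Serpinb8, -1.96 for Hdac5 and -0.75 for Mycn.

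Of 10 genes of the macrophage as such, 9 passed the filter, and each of these had overlapping groups. Cd14 and Fcer1g, 2 of the 9, were higher in 4 of 4 batches (4.1% of all genes). None was lower in all, and the median was 0.52. In whole RAW-G9 cells edgeR called Cd14 higher (3.29% of all genes) and Laptm5 lower (2.32%). Lyz2 was at 4761, 6861, 3631 and 1543 CPM after LPS and 509.1, 6867, 4678 and 5829 CPM in mock cells. Laptm5 was at 1190, 279.8, 808.1 and 522.9 CPM against 409.3, 1073, 1187 and 1077 CPM. RNAs kept in the nucleus were recovered unevenly, Malat1 being at 2.84, 593.3, 404.1 and 1060 CPM against 0.640, 1615, 1045 and 783.2 CPM, so that both sums of batch 6 were nearly without it. Neat1 was at 0, 121.3, 0 and 93.8 CPM against 0, 183.3, 82.4 and 64.4 CPM, and Kcnq1ot1 at 373.7, 70.3, 0 and 1.24 CPM against 0, 359.8, 204.7 and 0 CPM. Of 7 heat-shock genes, 4 passed the filter with a median of -0.08. Hspa8 was at 2925, 2826, 1694 and 1993 CPM against 2918, 2201, 1807 and 1783 CPM, and Hsp90aa1 at 2903, 778.4, 1042 and 1006.8 CPM against 1638, 766.3, 1004.7 and 793.5 CPM. Dnajb1 and Hsph1 were each lower after LPS in 3 of 4 batches.

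The second question was whether the biopsies and whole RAW-G9 cells differ in their response. The hours after LPS are given for biopsies only, not for whole cells. The whole cells were also detached with trypsin and sorted before lysis, by the methods. Time after LPS, if it differed, and handling cannot be told apart from technique. Whole cells came in 3 batches, 8_8, 9_1 and scRNA, of 15, 46 and 88 LPS and 16, 46 and 95 mock libraries. They were summed in the same way, and edgeR called 3.29% of 10417 genes higher after LPS and 2.32% lower. Of those called higher and also tested in Live-seq, which make up 3.36% of the 9140 genes, 36.5% were higher in 4 of 4 Live-seq batches, against 4.1% of all genes. Of those called lower and also tested, 2.24% of the 9140, 53 genes or 25.9% were lower in 4 of 4 batches, against 10.3%. Of the genes called higher in whole cells, DESeq2 called 45 higher and 0 lower in Live-seq, and of those called lower it called 10 lower and 0 higher. Read from the other side, 45 of the 79 genes that DESeq2 called higher in Live-seq (56.96%) and 10 of the 88 it called lower (11.4%) were called the same way in whole cells.

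The difference between the techniques was tested itself, as an interaction over 14 sums with batch within technique as a block of 7 levels. Batch 8_8 alone holds both techniques, and its biopsies and its whole cells were separate levels. edgeR called 0 of 10417 genes (0%), with 4.41% at an unadjusted p under 0.05 and a lowest adjusted p of 0.759. The median difference over all genes was -0.46. edgeR 4 also called 0, and DESeq2 called 8 with the larger value in Live-seq (0.0768%) and 52 with the smaller (0.499%). For Tnf the log2 fold change was 3.63 ± 0.41 in Live-seq and 3.50 ± 0.34 in whole cells, a difference of 0.10 ± 0.54. Ccl4 gave 3.71 ± 0.48 and 4.11 ± 0.71, and Clec4e 3.42 ± 0.56 and 3.14 ± 0.23. Icam1 gave 3.90 ± 0.40 in Live-seq and 3.07 ± 0.13 in whole cells, a difference of 0.81 ± 0.34. Nfkbia gave 1.38 ± 0.76 and 2.28 ± 0.21, and mCherry 3.36 ± 1.32 and 4.64 ± 0.64. A p that misses the threshold does not show that the techniques respond alike, and the standard errors for Live-seq were the wider ones for all of these genes but Ccl4.

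For the S phase list the whole cells had a median of -1.08, against -0.01 for all genes tested there. edgeR called 10 of 20 lower, against 2.32% of all genes. For G2 and mitosis the median was -0.09 and 0 of 20 were called, where Live-seq had -0.85. edgeR called no member of either list in the test of the difference. Among the receptors of resting macrophages, edgeR called 3 of 7 lower in whole cells (2.32% of all genes). The median was -1.07 there and -0.34 in Live-seq.

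**Figure D4:**
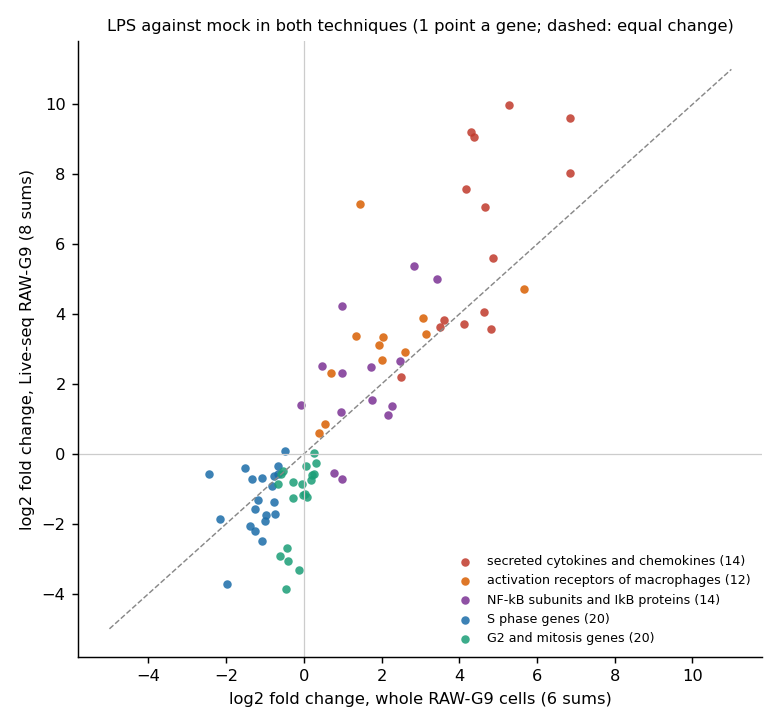
Log2 fold change of LPS against mock in Live-seq (vertical axis, 8 sums) against whole RAW-G9 cells (horizontal axis, 6 sums) for members of 5 lists, with a dashed line of equal change. Secreted factors sit at the upper right in both, S phase genes are below 0 in both, bar a single gene just above 0 in Live-seq, and several G2 and mitosis genes lie near 0 in whole cells and below 0 in Live-seq.

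The smallest p-values of this comparison belonged to genes with few counts. Larger in Live-seq were Homez, Tnfrsf14 and Zfp956, each with counts in at most 3 LPS and 2 mock biopsies. Homez was at 0, 16.8, 6.29 and 11.6 CPM after LPS and 0, 0, 0.221 and 0 CPM in mock biopsies, and in whole cells its log2 fold change was -2.63 ± 0.50. Tnfrsf14 was at 0, 0, 6.99 and 1.86 CPM after LPS and had no count in mock biopsies, and Zfp956 was at 0, 3.52, 33.6 and 11.8 CPM against 0, 0, 0.719 and 0 CPM. Smaller in Live-seq were Rara and Fam83d, described above, and Ttc8, a gene of the cilium's BBSome, at 0, 0, 0 and 0.207 CPM after LPS and 94.01, 3.12, 12.2 and 18.6 CPM in mock biopsies. In whole cells Rara was at 41.9, 6.25 and 23.6 CPM after LPS and 19.4, 7.48 and 27.1 CPM in mock cells, so counts were present in both groups there.

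The number of genes found in a biopsy did not shift in 1 direction. The median per cell after LPS minus that of mock cells was 606.5 genes in batch 6 and above 0 in batch 7 too, but -1542 in batch 8_8 and -133 in batch 9_4. The mean of these differences was -106.1 ± 1022 genes (SD, n = 4), with p = 0.875 in a two-sided exact permutation test within batches, whose smallest possible p is 0.125. With cells thinned to 50000 counts the mean difference was -98.0 genes (exact p = 0.75). In batch 8_8 the mock cells were many (63) and the LPS cells shallow, with a median of 208226 total counts against 349990. With cells thinned to 50000 counts the difference in batch 8_8 was -682.5 genes, and its cause was not tested.

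**Figure D5:**
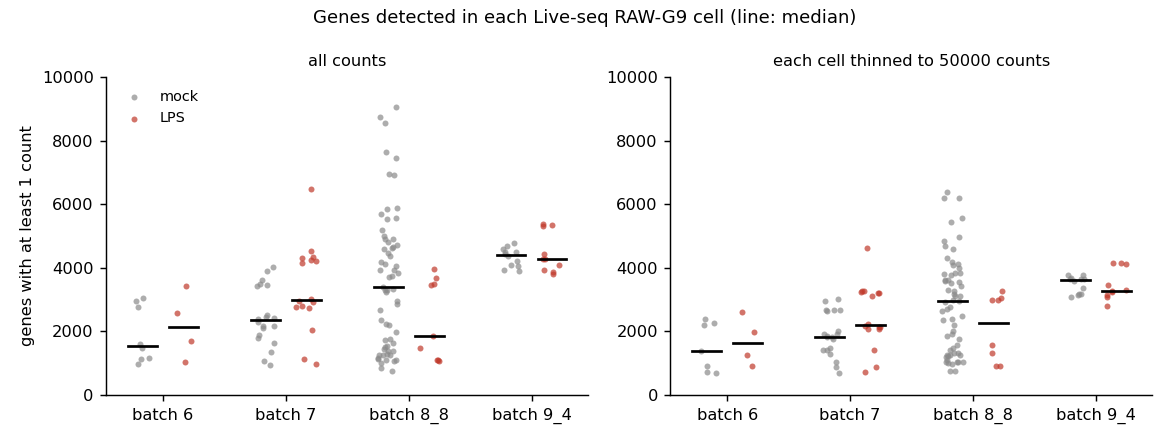
Number of genes with at least 1 count in each biopsy, from all counts (left) and after thinning to 50000 counts (right), by batch, with mock cells in grey, LPS cells in red and a line at the median. LPS cells have the higher median in batches 6 and 7 and the lower one in batches 8_8 and 9_4 in both panels.

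Lastly, 4 cells were sampled as mock and again after LPS, so that 8 libraries form pairs from the same cell. In 1 of these pairs, the third in the order below, the labels mark both libraries as a first extraction, so its order rests on the treatment labels alone. Tnf went from 0, 0, 0 and 53.6 CPM before LPS to 1304, 2107, 1630 and 2693 CPM after it, and mCherry from 0 in all 4 to 2337, 1450, 924.6 and 548.4 CPM. Without these pairs and without all second extractions, 10 cells in all, edgeR again called 0 genes, with 2.46% at an unadjusted p under 0.05.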

How the data were processed

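Per the labels and the methods, the authors aligned reads to mm10 with STAR 2.6.1c and counted them per gene with HTSeq without strand, and the values used are these deposited counts. Overlapping genes, 24 of those named, are therefore uncertain. The table also holds 552 columns of other cells, which were not used. Counts were summed per batch and treatment. Genes reaching 2 counts in 15% or more of whole LPS or whole mock RAW-G9 cells that also passed filterByExpr (minimum count 2, proportion 0.05) were fitted with edgeR 4.0.16 (R 4.3.3), using the older quasi-likelihood fit, TMM scaling and batch as a block, with Benjamini-Hochberg adjustment over all genes. A call needed an adjusted p under 0.05, an absolute log2 fold change over 1 and the same minimum among LPS or mock Live-seq cells. Standard errors are the log2 fold change divided by the square root of F. DESeq2 1.42.0 was an alternative, with other scalings, filters, cell sets and each batch left out. The fits were tested on simulated data. Bounds of fold over the floor with each batch left out were added after seeing the data. Batch comes from the labels, and the deviations of LPS and mock sums of batches 6, 7, 8_8 and 9_4 correlated at 0.184, 0.0761, 0.0163 and 0.0879 over genes. Named genes are the markers and reporters, the 10 with the smallest p in each direction among those with the same direction in 4 of 4 batches and at least 20 CPM in the higher group, the 4 most abundant of each list, and 3 per direction from the comparison of techniques. Il1b, Il6, Cxcl10, Tlr4 and list members given by name alone fall outside this rule and were chosen after their values were seen. Members and lists were chosen with earlier results of these data known. Positions are those of GENCODE.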

Additional observations from a re-analysis of the deposited data

Results flagged for a closer look

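Among the 160 groups of 4 sums behind 80 named genes, 30 held a sum far from the other 3 by Dixon's criterion on the log2(CPM + 1) scale. Normally distributed values meet it in about 1 group in 20. Where 3 sums are 0 any count meets it, so the 30 cannot be read against that rate. Batch 6, the thinnest, supplied 15 of them. Its mock sum was far below the others for Cd44 (2.56 CPM), Cx3cr1 (1.92), Laptm5 (409.3), Lyz2 (509.1), Malat1 (0.640), Rrm2 (117.7) and Trem2 (57.6), and far above them for Tnip1 (1073 CPM). Its LPS sum was far below the others for Cdk1 (26.9 CPM), Cybb (1276), Mef2c (0), Myd88 (0.709), Rrm1 (32.6) and Rrm2 (0.709), and it held the single LPS value above 0 for Serpinb8 (1.42 CPM).

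In batch 8_8 the mock sum stood above the others for Ccl9 (379.5 CPM), and it was the mock sum with a count for Col1a1 (0.332 CPM), Col1a2 (0.166), Gbp5 (0.387), Homez (0.221), Irf7 (4.87) and Zfp956 (0.719). In batch 7 the mock sum stood above the others for Fam83d (183.0 CPM), and the LPS sum was the one with a count for Col1a2 (0.302 CPM), Hdac5 (14.9) and Uhrf2 (4.43). In batch 9_4 the mock sum was low for Nfkb1 (0.671 CPM) and Ube2c (165.4), and the LPS sum was the one with a count for Fn1 (0.828 CPM) and Ttc8 (0.207).

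Ier2, an immediate early gene, was higher after LPS in every Live-seq batch and lower in every whole-cell batch, with a difference in log2 fold change of 1.05. It was picked out for these opposite directions, which were not tested apart from the fit over all genes, where it was not called.

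The wild-type RAW264.7 cells of batch 5Reseq, which entered an alternative fit but not the comparisons of the report, also carried the markers. The sum of 11 LPS cells had 2261 CPM of Tnf, 7695 CPM of Ccl4 and 702.4 CPM of Ptgs2. The 1 wild-type mock cell had 0 CPM of Tnf and 2.83 CPM each of Ccl4 and Ptgs2.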

How the results depend on the processing

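DESeq2 was the alternative that moved the number of calls, to 1.83% of the genes tested for LPS against mock and 0.576% for the comparison of techniques, while every other alternative run gave 0 in both, leaving out each batch included. The batch block changed no call, since the fit with no replicate block also called 0 genes, with 2.57% at an unadjusted p under 0.05. With single batches left out, the share of genes at an unadjusted p under 0.05 ran from 1.36% (without batch 7) to 4.56% (without batch 6) for LPS against mock, with 1.66% without 9_4, and from 1.88% (without scRNA) to 9.07% (without batch 7) for the techniques, where it was 1.96% without 9_1, 7.47% without 8_8 and 8.52% without 9_4. The median log2 fold change of all genes ran from -0.54 (without batch 7) to -0.22 (without 8_8), and the median difference between techniques from -0.59 (without batch 7) to -0.15 (without 8_8), with -0.26 without batch 6. Without batch 8_8 the mean difference in genes detected turned from -106.1 to 372.5, and over single batches left out it ran from -356.2 to 372.5. The median of the secreted list ran from 3.50 to 9.82 as batches were left out, and was 4.02 without the block.

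For the 72 named genes tested, 1019 of 1074 values under the alternatives kept their direction and their side of the threshold, 26 passed it (all with DESeq2) and 29 changed sign. The log2 fold change ran from 3.42 to 4.01 for Tnf, 3.38 to 4.11 for Ccl4 and 3.76 to 4.04 for Icam1, with adjusted p from 1.05e-06, 1.67e-05 and 1.37e-08 (DESeq2) to 1.00. Signs changed without the block for Cx3cr1 (-0.42), Hif1a (-0.35), Hsph1 (0.18), Kcnq1ot1 (-0.43), Ldha (0.04) and Ube2c (0.48). They changed with thinned cells for Kcnq1ot1 (-0.89), Malat1 (0.036) and Trem2 (0.058), with edgeR 4 for Kcnq1ot1 (-1.06), and without second extractions and pairs for Csf1r (0.0097) and Ube2c (0.24). With single batches left out the ranges crossed 0 for Cx3cr1 (-0.80 to 1.42), Hif1a (-0.017 to 1.02), Hspa8 (-0.0068 to 0.32), Hsph1 (-1.02 to 0.42), Kcnq1ot1 (-2.32 to 5.04), Ldha (-0.21 to 0.28), Lyz2 (-0.57 to 0.88), Malat1 (-0.63 to 0.20), Myd88 (-0.85 to 0.78), Neat1 (-3.79 to 0.15), Trem2 (-1.12 to 0.16) and Ube2c (-0.79 to 0.10). The cause was not tested. With 4 sums a side and this spread, a count of 0 calls does not show that genes did not differ.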
